A study of Mus musculus with 2 samples.

Results

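The 10 genes described here encode the EGF receptor family and its ligands. They are the 4 receptors Egfr, Erbb2, Erbb3 and Erbb4 and the 6 ligands Areg, Ereg, Hbegf, Tgfa, Epgn and Btc. They were chosen by name from the gene column of the array files, with no use of their signals, and make up 10 of 29982 genes and 13 of 39429 probes. ERBB proteins are receptor tyrosine kinases that work as pairs. EGFR and ERBB4 bind ligand and signal, ERBB2 has no known ligand of its own, and ERBB3 has little kinase activity and relies on its partner. The ligands are made as membrane-anchored precursors and are set free by ADAM metalloproteases, and the bound receptors signal through RAS, ERK and PI3-kinase. In urothelium, the epithelium that lines the ureter and bladder, this family is known for its part in proliferation and wound repair.

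Ureters of mouse embryos at E16.5 (E, embryonic day) were compared on 2 dual-colour oligonucleotide arrays, to ask which genes depend on the nuclear receptor gene Pparg in this organ. Pparg-cKO embryos carried Pax2-cre/+ and Pparg(fl/fl), and the controls carried no cre and were labelled Pparg(fl/?). In the study's matings the mothers were Pparg(fl/fl), so each control holds a floxed allele too. Both genotypes were kept on the outbred NMRI background. Pax2-cre recombines in the nephric duct and its derivatives, the ureteric epithelium and the collecting ducts, so the mesenchyme of the same ureters is not targeted. The recombined allele lacks exons 2 and 3 and can still be transcribed. Each RNA came from a pool of whole ureters sorted by sex, female on replicate 1 (array 1) and male on replicate 2 (array 2). The stage field of the second channel reads E14.5, against E16.5 in the titles.

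The labels give the control RNA as AlexaFluor647 (red) on array 1 and AlexaFluor555 (green) on array 2. The direction of change in the study's text, set against these arrays, implies the opposite assignment. The genotype of each RNA is therefore not settled here. RNA A denotes the red RNA of array 1 and the green RNA of array 2, and RNA B the other pair. RNA A is the control if the labels hold, and Pparg-cKO if the study's direction holds. Every log2 ratio below is RNA A over RNA B, and turning the genotypes turns every sign. The swap of dyes coincides with the change of sex, so the effects of dye and sex cannot be told apart. No spot was saturated, and 80.3% and 80.4% of spots were well above background in green and 70.4% on both arrays in red. Pparg itself was brighter in RNA A, with signals of 11295 against 7430 on array 1 and 12888 against 7872 on array 2. It passed the 1.5-fold filter, its log2 ratio averaging 0.66 ± 0.076 (SD, n = 2 arrays), but was not called by limma (adjusted p = 0.615). Where its probe lies relative to the deleted exons was not analysed, so it checks neither assignment.

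The probes are 60 bases long. The first 30 bases are shown for 7 probes that the results turn on, because the Egfr probes gave opposite dye patterns, Erbb2 differed most between the arrays, and Erbb3, Epgn and Btc leaned the same way on both. They are written 5′ to 3′ in lower case with no base singled out, and positions are those of the files (mm9).
Egfr probe 1 (chr11:16813815-16813874, plus strand): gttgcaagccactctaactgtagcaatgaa
Egfr probe 2 (chr11:16787172-16787231, plus strand): gaagtgtggccatctgggtacgttcaatgg
Egfr probe 3 (chr11:16783556-16783615, plus strand): tctggaagtatgcagatgccaataatgtct
Erbb2 (chr11:98298103-98298162, plus strand): ggctatgccaggaacgtgccctgaggaacc
Erbb3 (chr10:128006424-128006483, minus strand): gacaaccccgattactggcatagcaggctt
Epgn (chr5:91464119-91464178, plus strand): tcagccccgtttctaaccctcaaataccca
Btc (chr5:91786948-91787007, minus strand): ggatccttgtacattttactttacaagaga
None of the 13 probes shared 20 bases in a row with a probe of another gene, on either strand. The GC content ranged from 35.0% (Btc, Ereg, Egfr probe 1 and an Erbb4 probe) to 55.0% (Erbb2). The probes of Epgn, Ereg, Areg and Btc follow each other in that order on chromosome 5, where these ligand genes form a cluster.

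None of the 10 genes was called different between the RNAs. In bulk RNA, fewer cells of a type and less RNA per cell cannot be told apart. No member differed by 1.5-fold or more the same way on each array while reaching a signal of 100 in its brighter RNA, the filter drawn from the study's methods. Over all 29982 genes that filter passed 0.157% on the side of RNA A and 0.23% on that of RNA B. limma tests the mean of both log2 ratios against the gene's own spread between the arrays, drawn toward that of all genes. It was run on 21429 genes well above background, among them 8 of the 10 members. It called 0.126% of the tested genes on the side of RNA A and 0.187% on that of RNA B at an adjusted p under 0.05, and no member, also at an unadjusted p under 0.05 (limma), where 810 genes (3.78%) lay. The adjusted p was 0.9999 for each of the 8. A count of 0 of 10 is near these background shares and is not a result about the family. With 2 arrays a sign-flip permutation test cannot go below 0.5.

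The 8 measured members lay close to 0. Their median mean log2 ratio was -0.058, against 0.0067 over all tested genes, and their median absolute mean was 0.10, as over all tested genes. Of the 8, 4 pointed the same way on both arrays and 4 opposite ways, where 39.0% and 61.0% of all tested genes did so. The 95% limma intervals hold for each gene alone and rest on 2 arrays of pools and on a spread shared over all genes. Their widest bound, for Btc, was 0.92 on the log2 scale or 1.89-fold, and larger differences are not excluded. The smallest mean that limma called in any gene was 1.27 in absolute size.

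**Figure D1:**
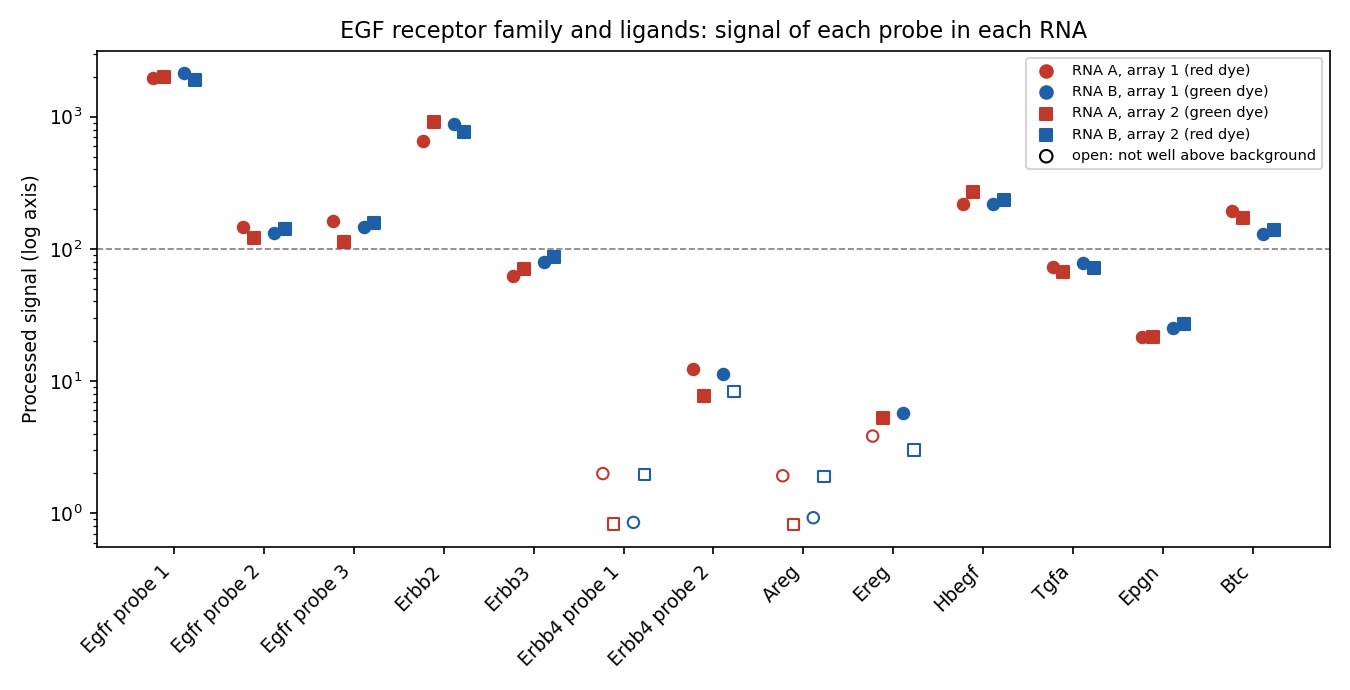
Processed signal (log axis) of each of the 13 probes in RNA A (red) and RNA B (blue) on array 1 (circles) and array 2 (squares), with open symbols where the signal was not well above background and a dashed line at the filter's 100. Egfr probe 1 lies between 1910 and 2131 in all 4 channels, and Areg and Erbb4 probe 1 are open throughout; heights of different probes are not comparable.

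Among the receptors, no gene kept a difference of 1.5-fold. Egfr, a receptor for all 6 ligands, is read by 3 probes, of which the files tie the first to transcript variant 1 and the others to variant 2. Probe 1, the brightest and the one used for the gene, gave 1951 (A) against 2131 (B) on array 1, then 1998 (A) against 1910 (B) on array 2. The RNAs swapped order between the arrays, the log2 ratio averaging -0.031 ± 0.14 (SD, n = 2 arrays) with a limma 95% interval of -0.48 to 0.42 (unadjusted p = 0.88). Of all tested genes, 83.1% had a larger absolute mean.

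The other Egfr probes leaned the other way on each array. Probe 2 gave 146 (A) against 131 (B) on array 1, then 120 (A) against 142 (B) on array 2. Probe 3 gave 162 and 145 on array 1, and 113 and 156 on array 2. On array 1 probe 1 was at -0.13 while probes 2 and 3 were at 0.16 and 0.15, and on array 2 probe 1 was at 0.065 while they were at -0.23 and -0.47. In terms of dye, probe 1 was brighter in green and probes 2 and 3 in red on both arrays, and the A-over-B ratio of all 3 changed sign between the arrays. The 4 spots of a probe lay closer together than the arrays did: their SD was at most 0.074 for any Egfr probe on either array. Whether probes 2 and 3 also read variant 1 was not analysed.

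Erbb2, the preferred partner of the other receptors, gave 654 (A) against 882 (B) on array 1, then 914 (A) against 763 (B) on array 2. RNA B was brighter on the female array and RNA A on the male one, both times the green channel. The log2 ratios of -0.43 and 0.26 gave a mean of -0.085 ± 0.49 (SD, n = 2 arrays), the widest spread of the 8 members, while the spots of 1 array had SDs of 0.023 and 0.061.

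Erbb3, the kinase-impaired receptor for neuregulins, gave 61.9 (A) against 79.9 (B) on array 1, then 70.5 (A) against 86.4 (B) on array 2. RNA B was brighter on both arrays. The mean log2 ratio was -0.33 ± 0.053 (SD, n = 2 arrays), with a limma interval of -0.78 to 0.12 (unadjusted p = 0.13), and 9.02% of tested genes had a larger absolute mean. All signals lay below the filter's 100.

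Erbb4, a receptor for neuregulins and for some EGF ligands, was near background. Its probe at chr1:68078805-68078864 gave 12.2 (A) against 11.3 (B) on array 1, then 7.72 (A) against 8.37 (B) on array 2. There only RNA A, the green channel, was well above background. The lowest spot signal so marked on array 2 was 3.88 in green and 9.59 in red. Erbb4 thus counted as measured through RNA A alone, and the dyes differ in this limit. The mean log2 ratio was 0.00045 ± 0.17 (SD, n = 2 arrays), with a limma interval of -0.46 to 0.46. The other probe, at chr1:68086686-68086745, was not well above background in RNA A or RNA B, and all 16 of its channel spots carried surrogate values, so no ratio is given.

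**Figure D2:**
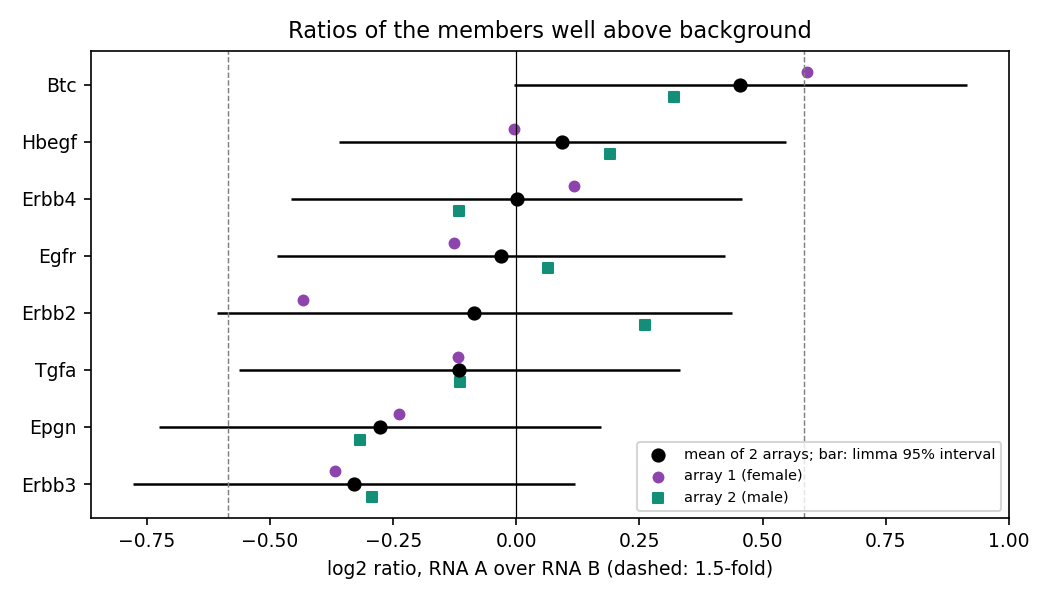
Log2 ratio of RNA A over RNA B for the 8 members well above background, on array 1 (purple circles), on array 2 (green squares) and as their mean (black) with the limma 95% interval as a bar; dashed lines mark 1.5-fold. Every interval holds 0, that of Btc reaching from -0.0048 to 0.92, and Egfr, Erbb2, Erbb4 and Hbegf have their arrays on opposite sides of 0.

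Among the ligands, Btc had the widest difference. Btc, betacellulin, activates EGFR and ERBB4. Its signals were 194 (A) against 129 (B) on array 1, then 172 (A) against 138 (B) on array 2. RNA A was brighter on both arrays, at 1.51-fold on the female and 1.25-fold on the male array. The mean log2 ratio was 0.46 ± 0.19 (SD, n = 2 arrays) with a limma interval of -0.0048 to 0.92 (unadjusted p = 0.052), and 4.58% of tested genes had a larger absolute mean. All 8 spots were above 0, from 0.51 to 0.65 on array 1 and from 0.27 to 0.36 on array 2. Without replicate 2, Btc alone of the members passed the 1.5-fold filter. Over the 13 alternatives that could be fitted, the unadjusted p (limma) ran from 0.034 with separate channels to 0.12 with no filter on dim probes. It was 0.043 with the deposited table, 0.049 with means over all probes, 0.058 with median centring and 0.055 with loess, and every adjusted p was above 0.99.

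Hbegf, the heparin-binding ligand of EGFR and ERBB4, gave 218 (A) against 219 (B) on array 1, then 268 (A) against 234 (B) on array 2. The RNAs were level on the female array and RNA A was brighter on the male one, the log2 ratio averaging 0.093 ± 0.14 (SD, n = 2 arrays) with a limma interval of -0.36 to 0.55. Tgfa, a ligand of EGFR alone, gave 72.5 (A) against 78.6 (B) on array 1, then 66.4 (A) against 71.9 (B) on array 2. RNA B was slightly brighter on both, and the mean log2 ratio was -0.12 ± 0.0017 (SD, n = 2 arrays), with spots from -0.23 to -0.0062 on array 1 and from -0.28 to 0.0094 on array 2. The arrays differed by less than the spread of single spots.

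Epgn, epigen, a low-affinity ligand of EGFR, gave 21.4 (A) against 25.2 (B) on array 1, then 21.7 (A) against 27.1 (B) on array 2. RNA B was brighter on both arrays, and the mean log2 ratio was -0.28 ± 0.056 (SD, n = 2 arrays; limma interval -0.73 to 0.17, unadjusted p = 0.19). On array 2 a single spot lay at -0.81, the median of the 4 spots was -0.17 and the other 3 lay between -0.17 and -0.12. With spots marked as outliers by the scanner software kept, the mean was -0.18.

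Areg and Ereg, amphiregulin and epiregulin, had no usable ratio. Areg gave 1.92 (A) against 0.92 (B) on array 1, then 0.82 (A) against 1.89 (B) on array 2, with 15 of 16 channel spots at surrogate values and none of the signals well above background. Ereg gave 3.83 and 5.77 on array 1 and 5.29 and 3.01 on array 2, and was well above background only in the green channel of either array, that is in RNA B on array 1 and RNA A on array 2. The Areg signals are bounds set by the background, not levels of 0. For Ereg only 2 spots, those of RNA B on array 2, carried surrogate values.

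**Figure D3:**
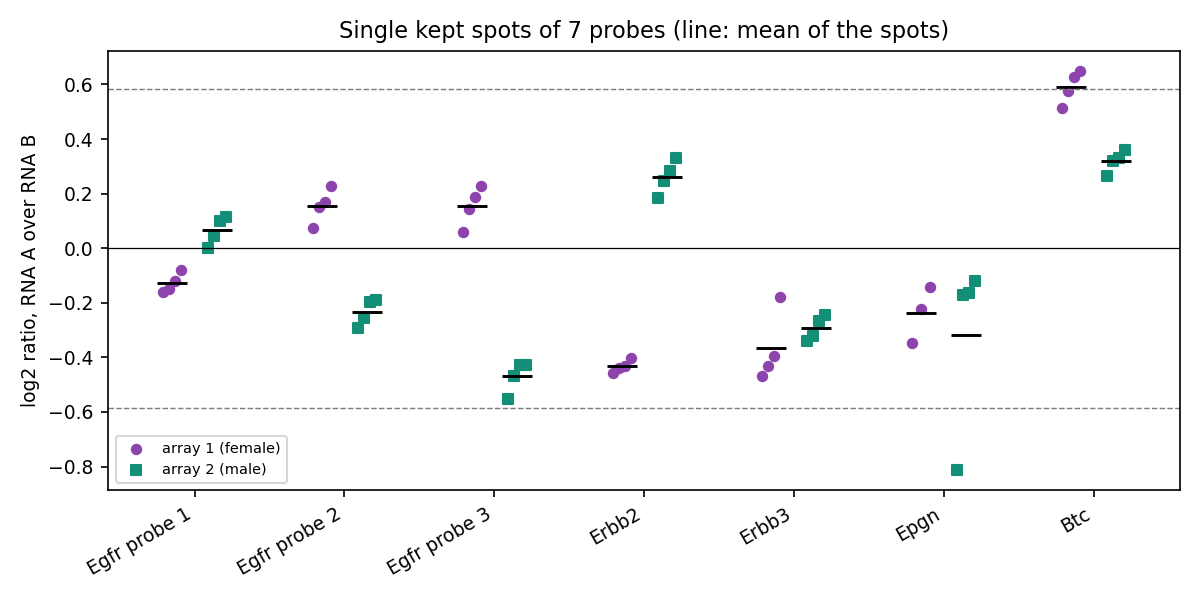
Log2 ratio of RNA A over RNA B of every kept spot of 7 probes, on array 1 (purple circles) and array 2 (green squares), with the mean of the spots as a line and dashed lines at 1.5-fold. The spots of Btc lie above 0 on both arrays, those of Erbb3 and Epgn below, Erbb2 and the Egfr probes change side between the arrays, and Epgn has 1 spot at -0.81.

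**Figure D4:**
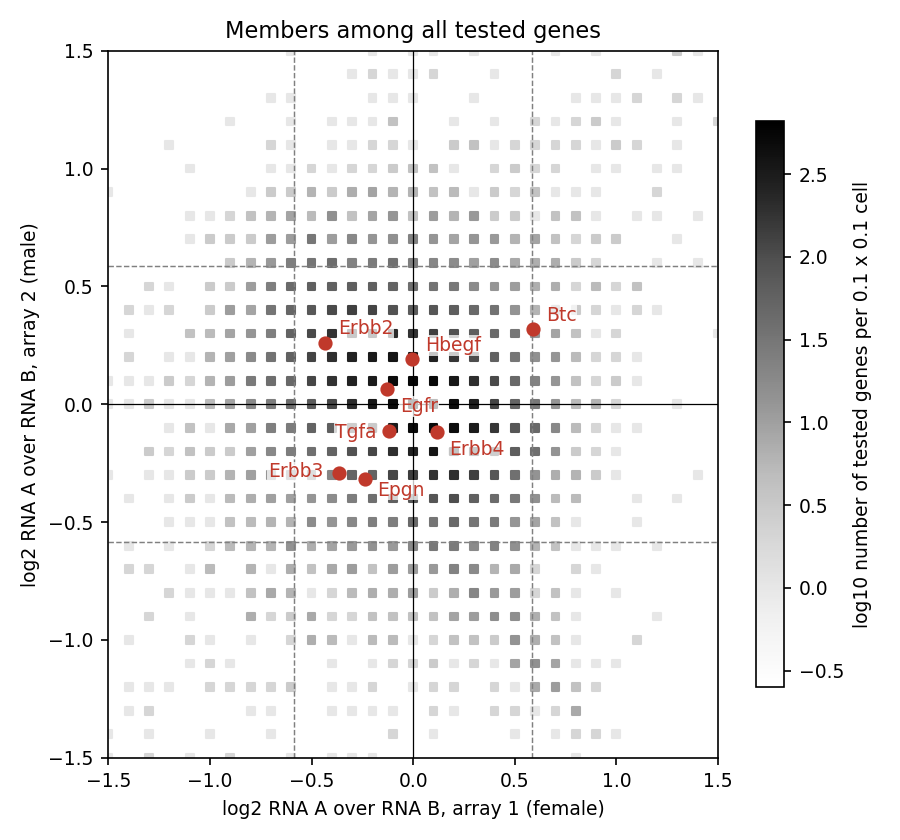
Log2 ratio of RNA A over RNA B on array 1 (horizontal) against array 2 (vertical) for the tested genes within 1.5 on both axes (grey cells, darker with more genes on a log10 scale) and the 8 measured members (red); dashed lines mark 1.5-fold. No member lies past 1.5-fold on both axes, and Btc alone is past it on 1, at 0.59 on array 1.

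The rest of the pathway was described by 5 lists with 63 genes, of which 61 were well above background (Nrg3, a neuregulin, and Fosl1, a FOS family gene, were not). None passed the 1.5-fold filter and limma called none, beside the shares over all genes given above. The median mean log2 ratio was -0.039. Of the 61, 12 leaned to RNA A on each array and 6 to RNA B, 12 in red on both and 31 in green. Of all tested genes, 21.6% leaned to RNA A, 17.4% to RNA B, 28.4% to red and 32.6% to green.

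Other ERBB ligands were split, with 4 of 5 measured and a median of 0.11. Nrg1, a neuregulin that binds ERBB3 and ERBB4, gave 165.1 (A) against 147.5 (B) on array 1 and 203 against 157 on array 2 (mean log2 ratio 0.27 ± 0.15, SD, n = 2 arrays). Nrg2, its relative, gave 181 against 270 on array 1 and 211 against 233 on array 2, a mean of -0.36 ± 0.30. The RNAs were ordered oppositely for these 2 neuregulins on both arrays, and neither was called.

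The 8 genes of ligand shedding had a median mean log2 ratio of -0.034. Adam17, the main sheddase of several EGF ligands, was at 0.030 and 0.24 on arrays 1 and 2. Rhbdf2, which escorts ADAM17 to the cell surface, was at -0.52 and 0.15, on opposite sides of 0. The 12 negative regulators of ERBB receptors had a median of -0.013. Cblc, a ubiquitin ligase of the CBL family, was at -0.91 and 0.34, with 172 (A) against 323 (B) on array 1, then 325 (A) against 257 (B) on array 2. Lrig1, which limits ERBB receptor levels, was at -0.25 and -0.029.

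The 20 adaptors and kinases had a median of -0.063. Braf, a kinase that acts between RAS and MEK, had log2 ratios averaging -0.24 ± 0.35 (SD, n = 2 arrays), at 0.0096 on array 1 and -0.49 on array 2. Sos1, a RAS activator recruited by GRB2, had the largest absolute mean of the 61 and was chosen after its values were seen. It gave 98.9 (A) against 63.2 (B) on array 1, then 115 (A) against 71.7 (B) on array 2. Its log2 ratios of 0.65 and 0.68 both passed 1.5-fold, and it missed the filter because 98.9 is below 100. limma gave a mean of 0.66, an unadjusted p of 0.0087 and an adjusted p of 0.596, the only one of the 61 at an unadjusted p under 0.05.

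The early response and feedback genes of ERK signalling, 17 of 18 measured, had a median mean log2 ratio of -0.047. Array by array their medians were -0.32 and 0.24, and 9 of the 17 were brighter in green on both arrays, none in red. Over all tested genes the array medians were -0.00038 and 0.025, and 32.6% were brighter in green and 28.4% in red on both arrays. Fos, an early response transcription factor, gave 236 (A) against 334 (B) on array 1, then 317 (A) against 360 (B) on array 2, a mean of -0.34 ± 0.22 (SD, n = 2 arrays). Dusp6, a phosphatase that acts on ERK, gave 2813 and 2573 on array 1 and 3044 and 2436 on array 2, a mean of 0.23 ± 0.14. Neither was called.

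**Figure D5:**
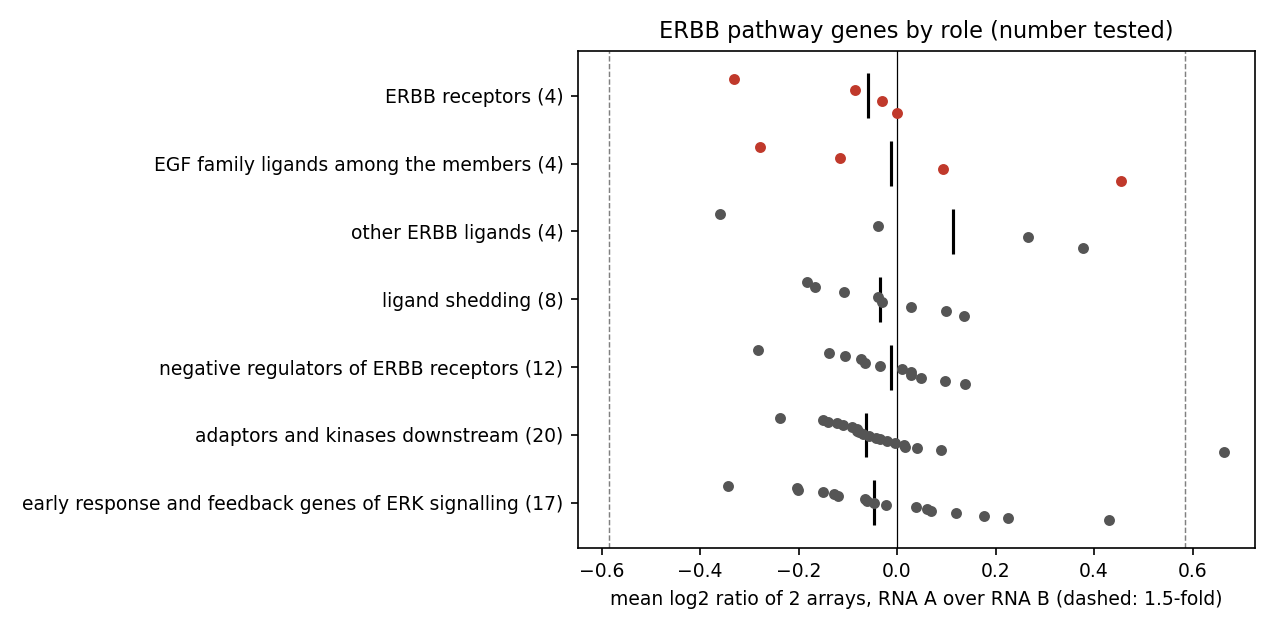
Mean log2 ratio of both arrays, RNA A over RNA B, for each tested gene of the receptors and member ligands (red) and of 5 other pathway lists (grey), with the list's median as a black line and dashed lines at 1.5-fold. List medians lie between -0.063 and 0.11, and Sos1, at 0.66, is the only gene beyond a dashed line.

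Superficial urothelium markers differed between the same RNAs, those of other ureter cell types were not called, and their part in the members' ratios was not tested. The urothelial and smooth muscle markers that define the ureter were all well above background. All 6 superficial urothelium markers, from Upk2 (-0.57) to Upk3b (-1.69), leaned to RNA B on each array, their median being -1.01. The filter passed 4 of them and limma called 2, and their summed signal was 49171 to 50739 in RNA A against 82481 to 86415 in RNA B. Most of that sum came from Upk3a, at 30472 to 32480 in RNA A against 50577 to 51988 in RNA B, which limma did not call. Of 4 basal markers, Krt5, Krt14 and Krt15 leaned to RNA A on both arrays (0.43 to 0.47) and Trp63 was at -0.11, with summed signals of 4492 to 4797 against 3812 to 3885. Of 6 smooth muscle markers, 5 leaned to RNA B on each array, the list median being -0.63, with summed signals of 73649 to 77351 against 98500 to 128874. None of the basal or smooth muscle markers passed the filter or was called by limma, where 0 basal and 5 smooth muscle markers had an unadjusted p under 0.05.

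The other marker lists followed the RNAs less evenly. The 5 pan-epithelium markers had a median of -0.22 (sums 58900 to 75416 in RNA A, 80635 to 86616 in RNA B), the 3 fibroblast markers -0.064 (sums in the same order, here and below, 104265 to 128202, 110594 to 132620) and the 4 endothelium markers 0.037 (8477 to 8753, 8471 to 8639). The 4 macrophage markers had a median of 0.18, 3 of them leaning to RNA A throughout (3957 to 4101, 3294 to 3596). Of 6 Schwann cell and glia markers 5 were measured, with a median of 0.11 (14254 to 22559, 17476 to 19536). Of 3 collecting duct markers 2 were measured, with a median of -0.10 (376 to 437, 425 to 537). Of 6 nephron markers the defining genes Umod, Slc12a1 and Nphs1 were not well above background, while Slc34a1 and Lrp2 leaned to RNA B throughout, and limma called Slc34a1. The 4 liver markers had a median of -0.62, at 0.11 on array 1 and -1.36 on array 2 (1956 to 6196, 5110 to 5928).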

How the data were processed

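The intensities of each spot, per the file headers, are the output of Agilent Feature Extraction 10.7.3.1, after background subtraction, surrogate values near background, and linear and LOWESS dye normalisation within each array, which can shrink dye-dependent ratios. A deposited log10 ratio (red to green) served only to check the dyes. The authors' deposited table of signed fold scores tracked RNA A over RNA B on arrays 1 and 2 and was an alternative. The r was 0.997 on both, across 18540 probes, which are not independent replicates. The sample titles read Pparg-cKO vs control, and no direction of the scores is stated otherwise. Read in that order, the scores make RNA A the Pparg-cKO RNA, as the study's direction does and the labels do not.

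Control spots (17263 per array) and spots marked as outliers (5705 and 5579) were left out, log2 signals were averaged over a probe's spots, and a gene was represented by its brightest probe. Probes counted as well above background with a share of 0.5 or more of such spots. Symbols came from RefSeq (GRCm38.p6, names only; 28328 of 39429 probes). limma 3.58.1 in R 4.3.3 was run with lmFit, eBayes and Benjamini-Hochberg over 21429 genes, the moderated test having 8.59 degrees of freedom. It was tried on simulated data whose planted changes were all larger than any member's ratio. That trial does not bear on differences of the members' size. The p-values of limma measure only the spread between 2 arrays of pools, drawn toward that of all tested genes. That spread also holds the effects of dye and sex, which change together between the arrays. The arrays shared 1 slide and 1 scan. Matplotlib 3.10.9 drew the figures. The number of arrays limits the precision.

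The members, the lists and the tests were chosen with earlier results of these data known. Named were all 10 members and, from each other pathway list, genes passing the filter or limma, or else the 2 with the largest absolute mean log2 ratio whose brighter RNA reached a signal of 100 on each array; Sos1 was added after its values were seen. Some results are not reported here. There were 15 alternatives, given in the closing section.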

Additional observations from a re-analysis of the deposited data

Results flagged for a closer look

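The following values had opposite signs on the female and the male array, and whether the arrays differ was not tested, since each sex is 1 array with its own dye orientation and sex and dye cannot be told apart. Each difference is the log2 ratio of RNA A over RNA B on array 1 minus that on array 2. Among the members it was -0.69 for Erbb2, 0.23 for Erbb4, -0.19 for Egfr and -0.19 for Hbegf. For the other Egfr probes it was 0.39 at position 16787172 and 0.62 at position 16783556, opposite in sign to the difference of the Egfr probe used for the gene. Of the 61 other pathway genes tested, 12 were brighter in red and 31 in green on both arrays, and so had opposite signs. Of those named by rule, the difference was -1.25 for Cblc, -0.67 for Rhbdf2 and 0.50 for Braf. Some genes outside that rule differed more than Rhbdf2, such as Phlda1 (-0.59 on array 1 and 0.47 on array 2), chosen after its values were seen. Of all tested genes 61.0% had opposite signs on the arrays.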

How the results depend on the processing

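No limma call was gained by the members or the other pathway genes under any of the 13 alternatives that could be fitted; with 1 array there are no residual degrees of freedom and no test. The members' filter counts were 0 throughout, except 0 to 1 brighter in RNA A (Btc) with 1 array left out. For pathway genes the count brighter in RNA A was 1 (Sos1) with no filter on dim probes and at a signal of 50, and 0 to 1 with 1 array left out (Sos1, without replicate 1). Brighter in RNA B it was 0 to 3 (Cblc, Map2k2 and Phlda1, without replicate 2). Btc (0.32 to 0.59), Erbb3 (-0.37 to -0.26), Epgn (-0.32 to -0.14) and Tgfa (-0.15 to -0.10) kept their direction under all 15 alternatives. With 1 array left out, Egfr ran from -0.13 to 0.065, Erbb2 from -0.43 to 0.26, Erbb4 from -0.12 to 0.12 and Hbegf from -0.0039 to 0.19, so that each changed sign (Hbegf without replicate 2, the others without replicate 1). Erbb4 also turned to -0.012 with median centring, -0.0057 with loess, -0.019 with normexp and loess and -0.0041 as the mean over all probes. The cause was not tested.

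Counts over all genes depended on the processing. limma called 27 genes on the side of RNA A and 40 on that of RNA B, against 8 and 20 with loess on the processed signals, 1 and 0 with normexp and loess, 0 and 0 with the deposited table (567 genes at an unadjusted p under 0.05) or with no filter on dim probes (494 genes), 15 and 30 with outlier spots kept, and 1 and 0 with separate channels. The filter passed 47 and 69 genes, against 193 and 239 with no threshold on signal, 28 and 49 at a signal of 200, 19 and 29 at 2-fold, and 301 to 321 and 488 to 637 with 1 array left out. Each ratio already pairs the RNAs of an array, and the labels hold 1 group of 2 arrays, so no further pairing was possible. Separate channels with no replicate block called no member. Signal over background left Areg and Ereg with no ratio.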
